A study of Mus musculus with 6 samples.

Results

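Chemokines, interleukins and interleukin receptors were described in 6 cell lines grown from mouse liver tumors. The 92 genes were the rows of the deposited expression table whose symbol begins with Ccl, Cxcl, Cx3cl or Il followed by a digit, out of 20856 genes with values. They comprise 31 chemokines, 26 interleukin ligands, antagonists or binding proteins, 34 interleukin receptor chains and *Il4i1*. The last is a secreted amino acid oxidase named for its induction by interleukin-4 and is no interleukin. The tumors were raised in C57BL/6 mice by hydrodynamic tail vein injection, which delivers DNA to hepatocytes, of a *Myc* transposon together with a plasmid carrying Cas9 and a guide RNA. In 3 lines the guide targeted *Trp53* (labelled Myc;sgp53/Cas9, here sgTrp53), and in the other 3 it targeted *Kmt2c*, the gene of the histone methyltransferase MLL3 (labelled Myc;sgMll3/Cas9, here sgKmt2c). All 6 lines carried the *Myc* transposon, none had both targeted genes intact, and each was cultured on collagen until no fibroblasts were visible. The study's methods say that the lines of a genotype came from different mice, so a line is the replicate. The sgTrp53 lines stand in for intact *Kmt2c*, and every difference given here is between 2 mutant genotypes.

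Chemokines are small secreted or membrane-bound proteins that draw leukocytes along a gradient by binding receptors on their surface. CXC chemokines with an ELR sequence before the first cysteines attract neutrophils through CXCR2, CXCR3 ligands attract activated T cells, and many CC chemokines attract monocytes, macrophages or lymphocytes. Interleukins act through paired receptor chains, of which a binding chain and a shared signalling chain are often encoded by different genes, so a cell that transcribes a single chain is not necessarily responsive. Senescent cells secrete a mixture of such factors, with interleukin-6, interleukin-1 and the ELR chemokines as its best known members, and NF-κB is a main activator of these genes.

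The promoters of the inducible chemokines are shown first because NF-κB is the factor most often tied to them. Each line below gives 120 bases of a RefSeq promoter (GRCm38.p6), 5′ to 3′ on the gene's strand, with every match of the 10-letter NF-κB consensus on either strand in capitals. Overlapping matches on both strands run together in *Cxcl1*, *Cxcl2* and *Cxcl3*.
Cxcl1 (chr5:90891144-90891263, plus strand): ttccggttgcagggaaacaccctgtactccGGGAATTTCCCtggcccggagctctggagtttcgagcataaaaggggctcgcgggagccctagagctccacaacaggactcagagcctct
Cxcl2 (chr5:90903772-90903891, plus strand): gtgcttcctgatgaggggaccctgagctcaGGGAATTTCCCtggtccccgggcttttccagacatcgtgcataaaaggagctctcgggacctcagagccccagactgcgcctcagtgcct
Cxcl3 (chr5:90785998-90786117, plus strand): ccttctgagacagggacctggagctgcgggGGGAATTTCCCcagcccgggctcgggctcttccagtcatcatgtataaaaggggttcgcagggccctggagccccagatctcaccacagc
Cxcl10 (chr5:92348959-92349078, minus strand): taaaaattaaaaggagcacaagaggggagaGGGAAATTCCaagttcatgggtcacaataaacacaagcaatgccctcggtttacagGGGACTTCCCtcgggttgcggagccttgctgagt
Ccl20 (chr1:83116656-83116775, plus strand): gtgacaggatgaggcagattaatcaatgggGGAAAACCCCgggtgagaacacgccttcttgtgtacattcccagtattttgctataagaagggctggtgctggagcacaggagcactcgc
Il6 (chr5:30013040-30013159, plus strand): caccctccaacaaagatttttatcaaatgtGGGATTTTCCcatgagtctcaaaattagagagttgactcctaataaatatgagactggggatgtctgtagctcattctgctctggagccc

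The 11 bases GGGAATTTCCC stood in all 3 neighbouring ELR chemokine promoters, beginning 71 bases before the gene start in *Cxcl1*, 97 in *Cxcl2* and 73 in *Cxcl3*. Distances count from the RefSeq start of the promoter table, which for *Cxcl1* and *Cxcl3* lies a few bases from the start in the deposited table (90891241 and 90786103). *Cxcl10* held 2 matches, beginning 159 and 103 bases before its start, *Ccl20* held 1 at 80 bases and *Il6* held 1 at 44 bases. The first 5 of these genes were transcribed in at least 2 lines, whereas *Il6* was transcribed in none, as described below. The promoters shown were picked by hand, and all hold a match. RefSeq promoters of 300 bases were matched for 67 of the 92 genes. The others, among them *Ccl2*, *Ccl7*, *Cxcl5*, *Cxcl16*, *Ccl5* and *Il15*, were not searched. The motif occurred in 13 of these 67 (19.4%), in 7 of 21 chemokines (33.3%) and in 6 of 46 interleukin and receptor genes (13.0%), beside 1388 of 27025 genes with such a promoter (5.14%). It was present in 10 of the 39 matched genes transcribed in any line (25.6%) and in 3 of the 28 transcribed in none (10.7%). *Il1r1* and *Il4ra* were the receptors with a match that were transcribed in every line. A match of letters is not a binding site, and no binding was measured here.

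Libraries held between 3680068 and 6878625 reads on genes, 5312182 to 6878625 in the sgTrp53 lines and 3680068 to 4704539 in the sgKmt2c lines. Values are reads per kilobase of transcript, scaled to the size of the library (RPKM), and triplets of values below are in the order of lines 1, 2 and 3. A single read on a transcript of 2 kb was worth 0.0726 to 0.136 RPKM. *Trp53* lay at 17.2, 17.6 and 19.4 RPKM in the sgTrp53 lines and at 92.2, 124 and 121 RPKM in the sgKmt2c lines, whereas *Kmt2c* overlapped (24.2, 18.4 and 19.2 against 19.7, 24.97 and 9.51 RPKM). The hepatocyte origin that the injection implies was only partly visible. *Alb*, the defining hepatocyte transcript, ranged from 0.644 to 4.36 RPKM over the 6 lines. The sum of 8 hepatocyte markers ranged from 2.75 RPKM in sgKmt2c line 2 to 5685 RPKM in sgKmt2c line 1. In the latter line *Apob* (4385 RPKM) and *Hnf4a* (1186 RPKM) made up most of the sum, and their listed lengths were not checked. The sum of 5 epithelial markers was 990, 62.6 and 723 RPKM in the sgTrp53 lines and 5811, 237 and 672 RPKM in the sgKmt2c lines. Hence lines of the same genotype differed widely, with sgKmt2c line 1 standing apart as the most epithelial.

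In each line a smaller share of these genes than of all genes was transcribed. At a threshold of 1 RPKM, used here for calling a gene transcribed, 39, 30 and 39 of the 92 genes were transcribed in the sgTrp53 lines and 32, 26 and 38 in the sgKmt2c lines. These were 28.3% to 42.4% of the members in a line, where 53.5% to 56.1% of all genes passed. Only 19 were transcribed in all 6 lines (20.7%, against 46.9% of all genes), 42 in none (45.7%, against 35.7%) and 31 in some lines but not in others (33.7%, against 17.4%). A total of 10 had no read in any line, among them *Il1b*, *Il2*, *Il12b*, *Ccl22* and *Cxcl11*, and 37 had at most 3 reads in every line. Reads on all 92 genes together made up 0.0760% to 0.146% of a library. At least 1 read was found for 60, 59 and 72 members in the sgTrp53 lines and for 45, 46 and 56 in the shallower sgKmt2c lines, and the part of depth in that gap was not tested.

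**Figure D1:**
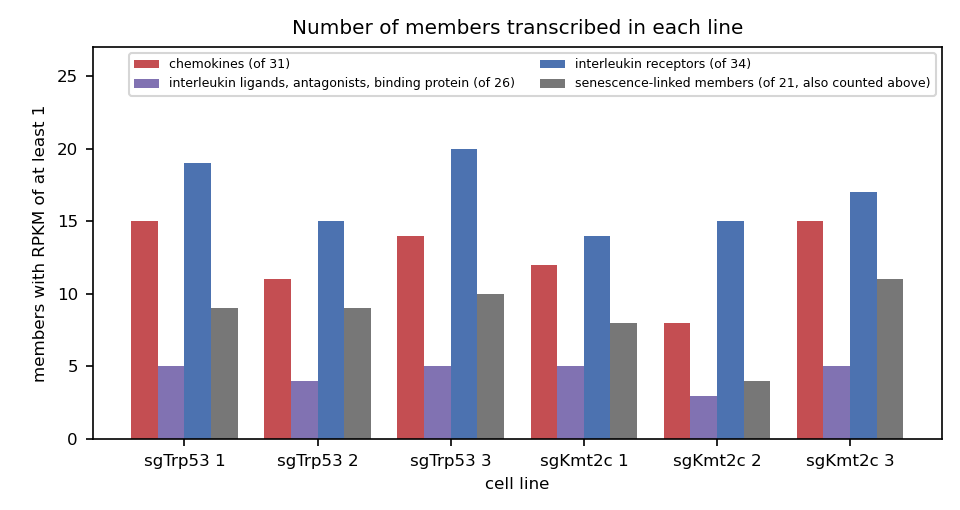
Number of members at 1 RPKM or more (vertical axis) in each of the 6 lines (horizontal axis), as bars for chemokines, interleukin ligands, interleukin receptors and the senescence-linked members, which are also counted among the others. Receptors were the most numerous class in every line, and the genotypes overlapped in each class: sgKmt2c line 2 had the fewest chemokines (8) and senescence-linked members (4), and sgKmt2c line 3 had 15 and 11.

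Receptors were transcribed more widely than ligands. Of the 34 receptor chains 22 reached 1 RPKM in some line and 11 in every line, compared with 9 and 2 of the 26 interleukin ligands and 18 and 6 of the 31 chemokines. Chemokines numbered 15, 11 and 14 per line in the sgTrp53 lines and 12, 8 and 15 in the sgKmt2c lines, and receptors 19, 15 and 20 against 14, 15 and 17. The ligands transcribed throughout were the interleukin-1 receptor antagonist *Il1rn* and the alarmin *Il33*, and the chemokines were *Ccl2*, *Ccl7*, *Ccl25*, *Ccl27a*, *Cx3cl1* and *Cxcl1*. Some of these passed on few reads: *Ccl27a* on 3 and *Ccl7* on 4 in sgKmt2c line 3, and *Il1rn* on 5 in sgKmt2c line 2. *Il17rd* was transcribed in all 3 sgTrp53 lines and in no sgKmt2c line, and no member showed the reverse (0.687% and 0.246% of the 13401 genes transcribed in any line, respectively). Another 8 members were transcribed in 1 or 2 sgTrp53 lines and in no sgKmt2c line (*Ccl5*, *Cxcl14*, *Il11*, *Il13ra2*, *Il17rb*, *Il18bp*, *Il18r1* and *Il24*), and 3 in sgKmt2c lines only (*Ccl9*, *Il15* and *Il4i1*). Thus 9 of the 50 members transcribed in any line (18.0%) were so in the sgTrp53 lines only, beside 5.72% of the 13401 genes, and 3 in the sgKmt2c lines only, beside 6.45%. The sgKmt2c libraries were the shallower ones, and the part of depth in these counts was not tested. Of the 50 members transcribed anywhere, the highest value lay in sgKmt2c line 1 for 14, in the sgTrp53 lines for 9, 7 and 8, and in sgKmt2c lines 2 and 3 for 7 and 5. The same counts over all genes were not computed.

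**Figure D2:**
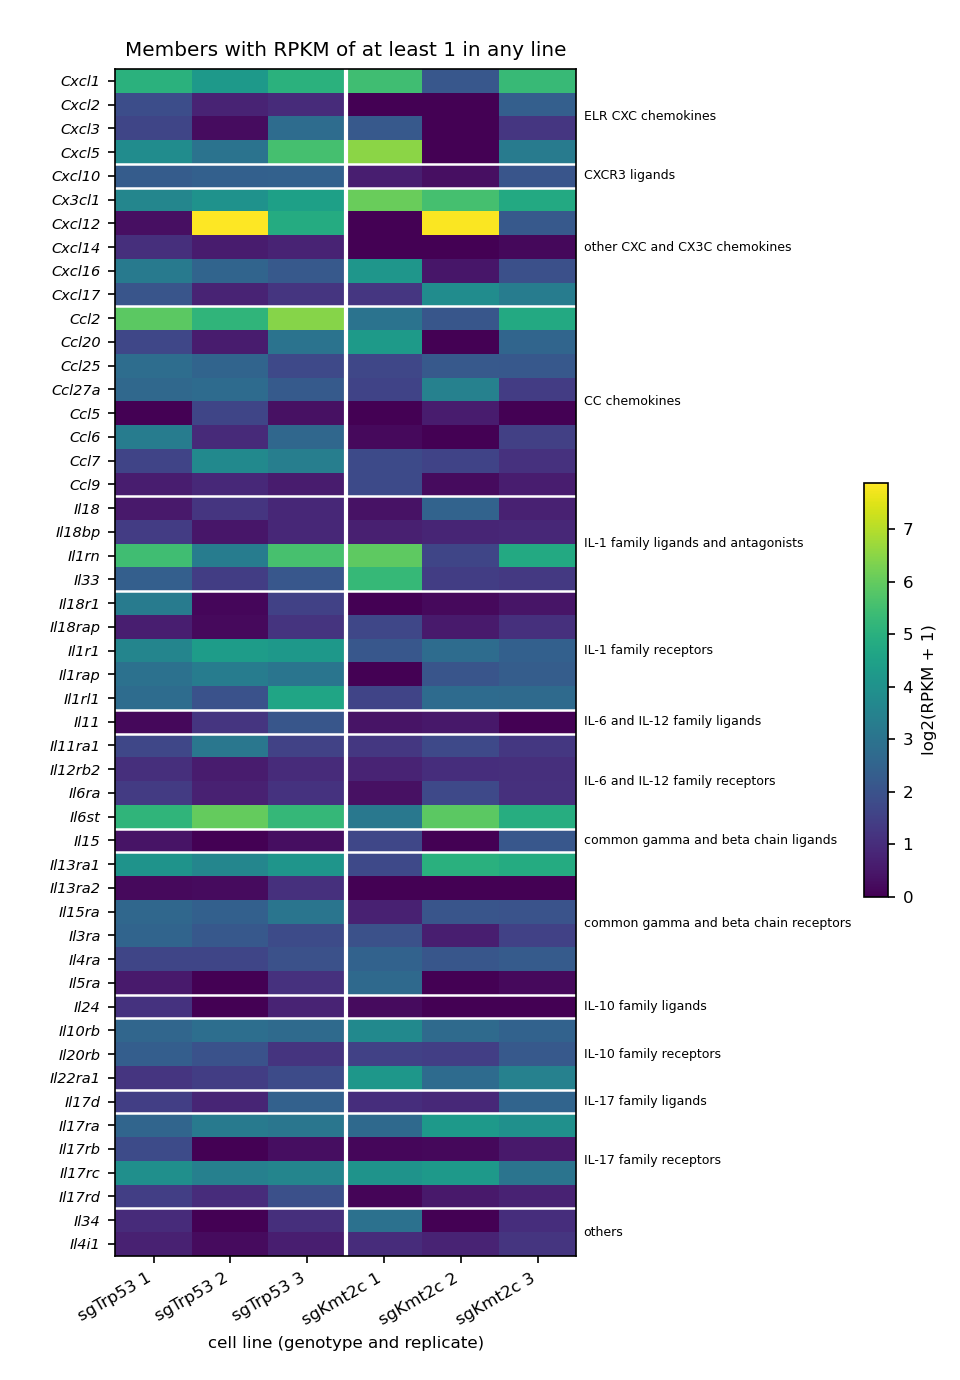
Levels as log2(RPKM + 1) (color) of the 50 members that reached 1 RPKM in at least 1 line (rows, grouped by role) in the 6 lines (columns, with a white line between genotypes). The genotypes do not overlap in 12 of the 50 rows (24.0%, beside 15.8% of all 13401 genes that reached 1 RPKM in any line). *Cxcl12* is bright in line 2 of each genotype, at 235 and 225 RPKM, and at or below 0.262 RPKM in line 1 of each.

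The ELR chemokines, the attractants of neutrophils, varied widely between lines. Their genes lie in a single cluster on chromosome 5, with *Cxcl5* from 90759299 to 90761625 and *Cxcl1* from 90891241 to 90893115 (GRCm38). *Cxcl1* was transcribed in every line, at 31.7, 17.8 and 31.5 RPKM in the sgTrp53 lines and at 43.2, 3.42 and 38.8 RPKM in the sgKmt2c lines. *Cxcl5* lay at 13.2, 6.93 and 45.7 RPKM and at 90.7, 0 and 8.76 RPKM, respectively. Thus sgKmt2c line 1 held the highest and sgKmt2c line 2 the lowest level of both genes, and the genotypes overlapped. The lack of any *Cxcl5* read in sgKmt2c line 2 allows up to 0.492 RPKM, the value of 3 reads, so that line 1 was at least 184-fold higher. *Cxcl3* followed with 2.11, 0.186 and 5.90 RPKM against 3.58, 0 and 1.39 RPKM, and *Cxcl2* with 2.64, 0.713 and 0.964 RPKM against 0, 0 and 4.22 RPKM. Both were weakly transcribed, on at most 41 and 19 reads in any line, and neither had a read in sgKmt2c line 2. *Cxcl15*, the lung-enriched member of the cluster, did not exceed 0.409 RPKM.

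*Cxcl12*, the chemokine that retains stem cells and leukocytes through CXCR4 and that stromal cells are known to make, separated lines and not genotypes. It lay at 0.262, 235 and 27.9 RPKM in the sgTrp53 lines, from 3, 2344 and 361 reads. In the sgKmt2c lines it lay at 0, 225 and 3.61 RPKM, from 0, 1560 and 29 reads. The highest line was at least 692-fold above the lowest, the widest range of the 50 members transcribed, and a single length of 1878 bases, 33.4% of the gene's longest transcript in GENCODE M1, scales these values. The sum of 9 fibroblast or stellate markers was 15.2, 986 and 168 RPKM in the sgTrp53 lines and 0.282, 150 and 110 RPKM in the sgKmt2c lines, with *Col3a1* at 814 and 115 RPKM in line 2 of each genotype. Of the 9, 7 reached 1 RPKM in some line. *Pdgfrb* lay at 0.970, 32.7 and 18.1 RPKM against 0, 23.4 and 10.4 RPKM and *Col1a2* at 2.70, 114 and 75.3 RPKM against 0, 8.94 and 4.40 RPKM, both highest in sgTrp53 line 2 and without a read in sgKmt2c line 1. Other markers of the list did not all follow that order. *Col1a1* lay at 0.470, 23.2 and 39.2 RPKM against 0.215, 2.01 and 1.74 RPKM. *Dcn* lay at 7.39, 0.897 and 8.16 RPKM against 0, 0 and 0.248 RPKM. *Des* lay at 0.217, 0.0621 and 2.06 RPKM against 0, 0.358 and 0.232 RPKM. *Thy1* reached 2.51 RPKM in sgTrp53 line 3 and at most 0.156 RPKM elsewhere, and *Pdgfra* and *Lum* stayed at or below 0.860 and 0.0790 RPKM. *Ackr3*, an atypical receptor that binds and removes CXCL12, lay at 0.588, 14.5 and 3.03 RPKM and at 0.277, 9.38 and 1.76 RPKM, and was the only one of 22 chemokine receptors to reach 1 RPKM in any line. Whether cells of another type contributed to *Cxcl12* was not tested, and in cultured lines measured in bulk more cells of a type and more RNA per cell cannot be told apart.

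The other CXC and CX3C chemokines included both transmembrane chemokines. *Cx3cl1* (fractalkine, the ligand of CX3CR1 on monocytes and microglia) was transcribed in every line and did not overlap between genotypes, at 11.2, 15.2 and 21.4 RPKM in the sgTrp53 lines and at 66.2, 45.8 and 26.7 RPKM in the sgKmt2c lines. Its listed length of 657 bases is 19.8% of the longest transcript, so its level against other genes is uncertain. *Cxcl16*, the ligand of CXCR6 on T and NKT cells, lay at 8.38, 4.87 and 3.60 RPKM against 16.7, 0.402 and 2.77 RPKM. *Cxcl17*, a mucosal chemokine, lay at 3.23, 0.741 and 1.34 RPKM against 1.39, 13.2 and 8.91 RPKM. Both overlapped between genotypes, and sgKmt2c line 2 was lowest for *Cxcl16* and highest for *Cxcl17*. *Cxcl14* barely passed the threshold, in sgTrp53 line 1 only (1.08, 0.516 and 0.717 RPKM against 0, 0 and 0.128 RPKM), yet its genotypes did not overlap. Among the CXCR3 ligands *Cxcl10* lay at 3.90, 4.30 and 4.51 RPKM in the sgTrp53 lines and at 0.582, 0.248 and 3.21 RPKM in the sgKmt2c lines. *Cxcl9* and *Cxcl11* had at most 1 read in any line, and *Cxcl10* lies within the span of *Art3*, whose reads an unstranded count can mix with its own.

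The monocyte attractants *Ccl2* and *Ccl7*, neighbours on chromosome 11 (82035571 to 82037453 and 82045712 to 82047525, GRCm38), were transcribed in every line. *Ccl2* lay at 58.5, 34.4 and 86.9 RPKM in the sgTrp53 lines, from 290, 149 and 487 reads. In the sgKmt2c lines it lay at 7.05, 3.34 and 26.5 RPKM, from 27, 10 and 92 reads. All sgKmt2c lines were thus below all sgTrp53 lines, with line 3 closest to them. *Ccl7* lay at 2.05, 12.4 and 9.24 RPKM against 2.38, 2.03 and 1.17 RPKM, so sgTrp53 line 1 fell among the sgKmt2c lines. These values of *Ccl7* came from 10, 53 and 51 reads against 9, 6 and 4 reads. *Ccl6*, a myeloid chemokine of rodents, lay at 8.995, 0.914 and 5.24 RPKM against 0.147, 0 and 1.79 RPKM. *Ccl3*, which attracts macrophages, had only 4, 2 and 5 reads in the sgTrp53 lines and none in the sgKmt2c lines.

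The summed leukocyte markers also lay lower in the sgKmt2c lines, but not every marker did. The sum of 10 immune markers was 49.4, 22.6 and 61.0 RPKM in the sgTrp53 lines and 6.28, 5.51 and 15.4 RPKM in the sgKmt2c lines, and 4 of the 10 reached 1 RPKM in any line. *Lyz2* made up most of it at 29.0, 17.1 and 45.3 RPKM against 0, 0.214 and 12.4 RPKM, and *Csf1r* lay at 10.0, 1.70 and 8.33 RPKM against 0.932, 0 and 0.967 RPKM. *Cd68* overlapped between genotypes at 7.60, 2.60 and 4.01 RPKM against 5.35, 5.29 and 1.71 RPKM. Of the 3 markers tested 0 had an adjusted p-value under 0.05 in limma, and 2 (*Lyz2* and *Csf1r*) had an unadjusted one (5.34% of all genes tested were lower at that threshold). *Csf1r* reached 1 RPKM in the sgTrp53 lines only and entered the test through them. The pan-leukocyte marker *Ptprc* did not exceed 0.0655 RPKM, *Adgre1* did not exceed 0.492 RPKM, and *Cd3e* and *Cd79a* had no read in any line. The part of these markers in the levels of *Ccl2*, *Ccl3*, *Ccl6* and *Ccl7* was not tested.

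*Ccl20*, which recruits CCR6-bearing lymphocytes and dendritic cells, lay at 2.20, 0.531 and 7.07 RPKM in the sgTrp53 lines and at 18.7, 0 and 4.95 RPKM in the sgKmt2c lines, with the same highest and lowest line as *Cxcl5*. The homeostatic chemokine *Ccl25* varied less between lines (6.03, 4.78 and 2.33 RPKM against 2.20, 3.58 and 3.53 RPKM). *Ccl27a* lay at 5.36, 5.71 and 3.73 RPKM against 1.98, 10.1 and 1.64 RPKM. These values rest on 3 to 16 reads, and both the overlap of the gene with *Il11ra1* and its near-identical copies make them uncertain. *Ccl9* was transcribed in sgKmt2c line 1 only (2.40 RPKM) and *Ccl5* in sgTrp53 line 2 only (2.12 RPKM, 6 reads). The remaining 9 CC chemokines stayed below 1 RPKM in every line besides *Ccl3*.

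**Figure D3:**
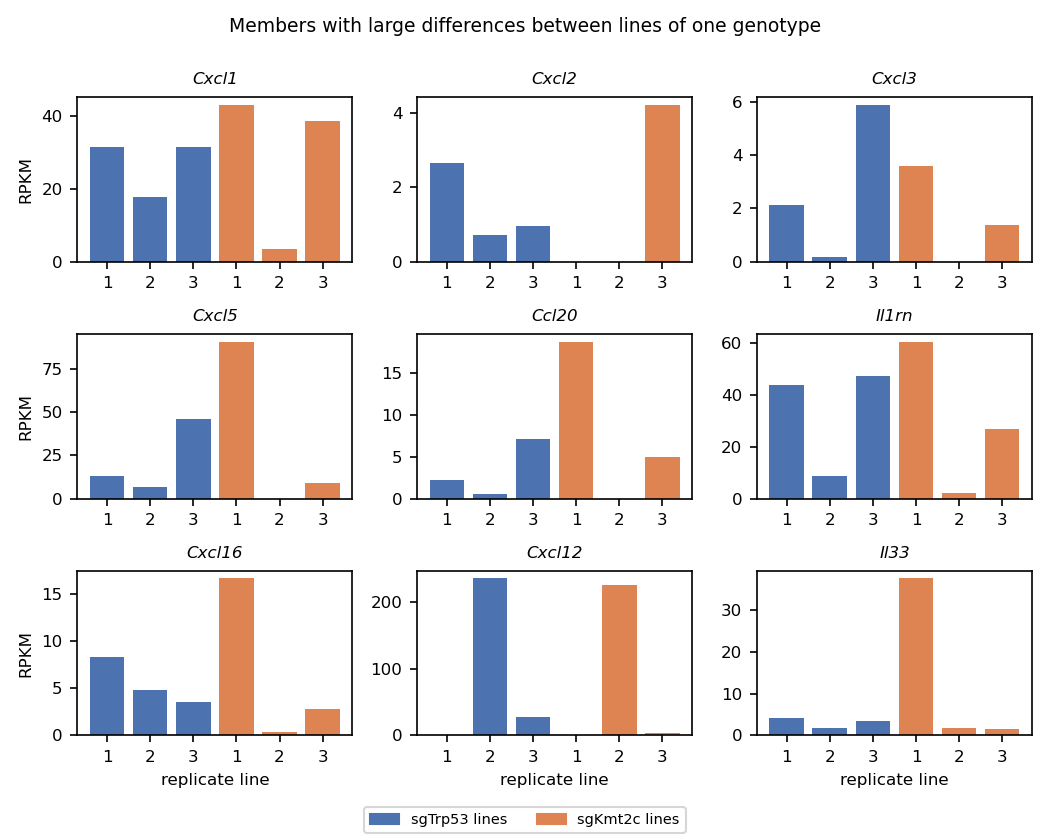
RPKM (vertical axes, linear from 0) of 9 members in each line (horizontal axes, replicate lines 1 to 3 of sgTrp53 in blue and of sgKmt2c in orange). For *Cxcl5*, *Ccl20*, *Il1rn* and *Cxcl16* sgKmt2c line 1 is the tallest bar and sgKmt2c line 2 the shortest, whereas *Cxcl12* is tallest in line 2 of each genotype and *Il33* stands at 37.6 RPKM in sgKmt2c line 1 alone.

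The antagonist of interleukin-1 was transcribed in every line, and interleukin-1 itself in none. *Il1rn*, which blocks the interleukin-1 receptor, lay at 43.6, 8.87 and 47.2 RPKM in the sgTrp53 lines and at 60.4, 2.13 and 26.9 RPKM in the sgKmt2c lines. *Il1b* had no read in any line, which allows 0.321 to 0.600 RPKM at 3 reads, and *Il1a* had at most 3 reads. The alarmin *Il33* lay at 4.27, 1.70 and 3.38 RPKM against 37.6, 1.71 and 1.48 RPKM. The highest value of *Il33* came from 450 reads in sgKmt2c line 1, the line with the highest sums of hepatocyte and epithelial markers, and the part of that state in its level was not tested. *Il18* reached 4.64 RPKM in sgKmt2c line 2 and *Il18bp*, which neutralises it, 1.64 RPKM in sgTrp53 line 1. The listed length of *Il1rn* is 25.7% of its longest transcript, so its level may be overstated against other genes.

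The receptors of this family were lower in the sgKmt2c lines for interleukin-1 and mixed for the rest. *Il1r1* (chromosome 1, 40225080 to 40317257), the signalling receptor of interleukin-1, lay at 11.0, 19.3 and 17.3 RPKM in the sgTrp53 lines and at 3.39, 5.83 and 4.34 RPKM in the sgKmt2c lines. *Il1rap* (chromosome 16, 26581704 to 26730117), the accessory chain needed by the receptors of interleukin-1 and interleukin-33, lay at 6.69, 8.98 and 7.39 RPKM against 0, 3.18 and 4.01 RPKM. No line of either gene overlapped between genotypes. *Il1rap* had 181, 212 and 226 reads in the sgTrp53 lines, 52 and 76 in sgKmt2c lines 2 and 3, and not a single read in sgKmt2c line 1, where 3 reads would be 0.143 RPKM. That line was thus highest for the antagonist *Il1rn* and for *Il33*, lowest for *Il1r1* and without detectable *Il1rap*.

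*Il1rl1* (ST2, the receptor of interleukin-33) lay at 5.93, 2.94 and 23.6 RPKM against 2.09, 5.80 and 5.58 RPKM, and its listed length is 22.9% of its longest transcript. *Il18r1*, the binding chain for interleukin-18, reached 8.63 RPKM in sgTrp53 line 1 and 1.89 RPKM in sgTrp53 line 3 and stayed at or below 0.366 RPKM elsewhere. Its partner *Il18rap* ranged from 0.154 to 2.21 RPKM and was highest in sgKmt2c line 1, where *Il18r1* had no read. *Il1rl2*, the receptor of interleukin-36, had at most 3 reads in any line.

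Of the interleukin-6 and interleukin-12 families the ligands were all but silent and the shared chain was abundant. *Il6* had 0, 2 and 3 reads in the sgTrp53 lines and 0, 0 and 1 in the sgKmt2c lines, where 3 reads would be 0.382 to 0.713 RPKM. *Il11*, a cytokine of stressed stromal and epithelial cells, reached 3.32 and 1.34 RPKM in sgTrp53 lines 3 and 2 and at most 0.428 RPKM elsewhere, whereas *Il12b*, *Il23a* and *Il27* had at most 3 reads. *Il6st* (gp130), the signalling chain for interleukin-6, interleukin-11 and their relatives, had the most reads of any member in 5 of the 6 lines. It lay at 34.6, 63.6 and 37.0 RPKM in the sgTrp53 lines and at 7.87, 58.8 and 28.8 RPKM in the sgKmt2c lines, lowest in sgKmt2c line 1. The binding chain *Il6ra* ranged from 0.270 RPKM in that same line to 2.35 RPKM in sgKmt2c line 2. The listed length of *Il6ra* is 258% of its longest transcript in GENCODE M1 and that of *Il6st* 167%, so both levels may be understated. *Il11ra1* lay at 2.18, 7.80 and 1.93 RPKM against 1.41, 2.36 and 1.44 RPKM, and *Il12rb2* ranged from 0.506 to 1.08 RPKM. *Il27ra*, although below 1 RPKM everywhere (0.123, 0.141 and 0.218 RPKM against 0, 0 and 0.0880 RPKM), did not overlap between genotypes, on at most 4 reads.

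*Il13ra1* and *Il4ra*, receptor chains for interleukin-4 and interleukin-13, were transcribed in every line, although *Il2rg*, the common gamma chain itself, had 1 read in all. *Il13ra1*, which pairs with *Il4ra* in non-hematopoietic cells, lay at 15.5, 11.2 and 16.4 RPKM in the sgTrp53 lines and at 2.34, 31.2 and 27.7 RPKM in the sgKmt2c lines. Thus sgKmt2c line 1 was below and lines 2 and 3 were above all sgTrp53 lines. *Il4ra* lay at 2.13, 2.14 and 2.91 RPKM against 4.63, 3.30 and 3.77 RPKM, with no overlap. The decoy chain *Il13ra2* had 2, 2 and 18 reads in the sgTrp53 lines and none in the sgKmt2c lines. *Il15ra*, which presents interleukin-15 to lymphocytes, lay at 5.25, 4.37 and 7.27 RPKM against 0.658, 3.22 and 3.02 RPKM, again with no overlap and with sgKmt2c line 1 lowest. Its ligand *Il15* was transcribed in sgKmt2c lines 1 and 3 (2.22 and 3.43 RPKM) and stayed at or below 0.344 RPKM in the others. *Il3ra* lay at 4.82, 3.51 and 2.499 RPKM against 2.89, 0.584 and 1.85 RPKM, and *Il5ra* reached 5.48 RPKM in sgKmt2c line 1 and 1.19 RPKM in sgTrp53 line 3. *Il2*, *Il4*, *Il5*, *Il2ra*, *Il2rb*, *Il7r*, *Il9r* and *Il21r* had at most 2 reads in any line.

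The genes of both chains of the interleukin-22 receptor were transcribed in every line. *Il22ra1* (chromosome 4, 135728172 to 135752140), the chain that confers interleukin-22 responses on epithelial cells and hepatocytes, lay at 1.34, 1.68 and 2.49 RPKM in the sgTrp53 lines, from 21, 23 and 44 reads. In the sgKmt2c lines it lay at 17.2, 5.81 and 10.0 RPKM, from 208, 55 and 110 reads, all above the sgTrp53 lines. *Il10rb*, its shared partner chain, overlapped between genotypes at 5.11, 6.26 and 5.62 RPKM against 12.3, 5.54 and 4.61 RPKM. *Il20rb*, with which *Il22ra1* also forms a receptor for interleukins 20 and 24, lay at 4.06, 2.99 and 1.28 RPKM against 1.88, 1.76 and 3.59 RPKM. Of the ligands in this family, *Il10* and *Il20* had at most 1 read and *Il24* reached 1.25 RPKM in sgTrp53 line 1 only. The sum of epithelial markers (990, 62.6 and 723 RPKM against 5811, 237 and 672 RPKM) was, like *Il22ra1*, highest in sgKmt2c line 1, and the part of epithelial state in the level of *Il22ra1* was not tested.

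Both chains of the interleukin-17A receptor were transcribed throughout. *Il17ra* lay at 4.997, 8.24 and 7.57 RPKM in the sgTrp53 lines and at 5.51, 17.8 and 14.5 RPKM in the sgKmt2c lines, and *Il17rc* at 14.2, 9.80 and 11.0 RPKM against 15.5, 18.4 and 7.11 RPKM. Both overlapped. *Il17rd*, known mainly as an inhibitor of fibroblast growth factor signalling, lay at 1.74, 1.01 and 2.79 RPKM against 0.0775, 0.462 and 0.683 RPKM, so it passed 1 RPKM in one genotype and not in the other. *Il17rb* was transcribed in sgTrp53 line 1 only (2.45 RPKM). *Il17re*, the chain for interleukin-17C, had 0 to 2 reads per line, and its non-overlapping genotypes rest on these. *Il17d*, an atypical ligand of the family, ranged from 0.770 to 4.79 RPKM and was highest in line 3 of each genotype. *Il34*, a ligand of the macrophage receptor CSF1R, reached 6.60 RPKM in sgKmt2c line 1 and at most 1.08 RPKM elsewhere. *Il4i1* lay at 0.641, 0.163 and 0.568 RPKM against 1.01, 0.707 and 1.32 RPKM, with no overlap, but shares its span with *Atf5* and *Nup62*.

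The number of senescence-linked secreted factors transcribed in a line overlapped between genotypes. Of 21 such members, 9, 9 and 10 were transcribed in the sgTrp53 lines and 8, 4 and 11 in the sgKmt2c lines. *Ccl2*, *Ccl7* and *Cxcl1* were transcribed in all lines, and *Ccl3*, *Ccl4*, *Ccl8*, *Cxcl15*, *Il1a*, *Il1b*, *Il6* and *Il7* in none. *Il1a*, *Il1b*, *Il6*, *Ccl4* and *Ccl8* had at most 3 reads in every line, and *Il7* did not exceed 0.387 RPKM. The small number in sgKmt2c line 2 comprised *Ccl2*, *Ccl7*, *Cxcl1* and *Cxcl12*, and line 3 of the same genotype held the largest number. Beyond the chemokines and interleukins, 37 other senescence-linked factors were looked at, of which 31 were tested. None had an adjusted p-value under 0.05 in limma. The smallest was 0.0503 for *Igfbp5*, a binding protein of insulin-like growth factors, at 0.109, 0 and 0.0483 RPKM against 7.74, 3.93 and 6.89 RPKM. *Igfbp5* entered the test, which requires 1 RPKM in at least 3 libraries, only through the sgKmt2c lines, where it was high. At an unadjusted p-value under 0.05, 4 were higher (*Igfbp5*, *Areg*, *Tnfrsf1a* and *Mmp13*, where 3.25% of all genes tested passed in that direction) and 2 lower (*Plau* and *Vcam1*, where 5.34% passed) in the sgKmt2c lines, and their median log2 fold change was -0.20 beside -0.09 over all genes. The plasminogen activator *Plau* lay at 18.8, 26.2 and 41.3 RPKM against 9.51, 10.9 and 3.39 RPKM. The epidermal growth factor receptor ligand *Areg* lay at 0.547, 0.157 and 1.57 RPKM against 448, 7.01 and 11.9 RPKM. All sgKmt2c lines were thus above all sgTrp53 lines, with sgKmt2c line 1 far above the others.

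The genotypes were compared with limma on log2(RPKM + 1) over all genes that reached 1 RPKM in at least 3 libraries. This filter passed 36 of the 92 members. None of them had an adjusted p-value under 0.05, against 15 of the 11617 genes tested (0.129%, of which 0.0516% higher and 0.0775% lower in the sgKmt2c lines), and the smallest was 0.227 for *Il1r1*. limma voom on recovered reads gave 0 members as well. At an unadjusted p-value under 0.05 there were 10 members, 27.8% of those tested, where 8.58% of all genes tested passed. Their number was 5 without sgTrp53 line 1, 6 without sgTrp53 line 2 and 4 without sgTrp53 line 3. In these fits 6.58%, 5.55% and 4.85% of all genes tested passed, respectively. Of the 10, 2 were higher in the sgKmt2c lines (*Cx3cl1* and *Il22ra1*, where 3.25% of all genes passed in that direction) and 8 lower (*Ccl2*, *Ccl6*, *Ccl7*, *Cxcl10*, *Il15ra*, *Il17rd*, *Il1r1* and *Il1rap*, where 5.34% passed). The genotypes did not overlap in 9 of the 36 tested members, and in 16.2% of all genes tested. They were higher in 3 (*Cx3cl1*, *Il22ra1* and *Il4ra*, background 5.72%) and lower in 6 (background 10.4%). *Il17rd*, among these 6 and among the 8 above, passed the filter only through the sgTrp53 lines, where it was high. Its call is therefore no independent support. For a single gene, 3 lines against 3 cannot give an exact permutation p-value below 0.1. The median log2 fold change of the tested members was -0.40, beside -0.09 over all genes tested.

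**Figure D4:**
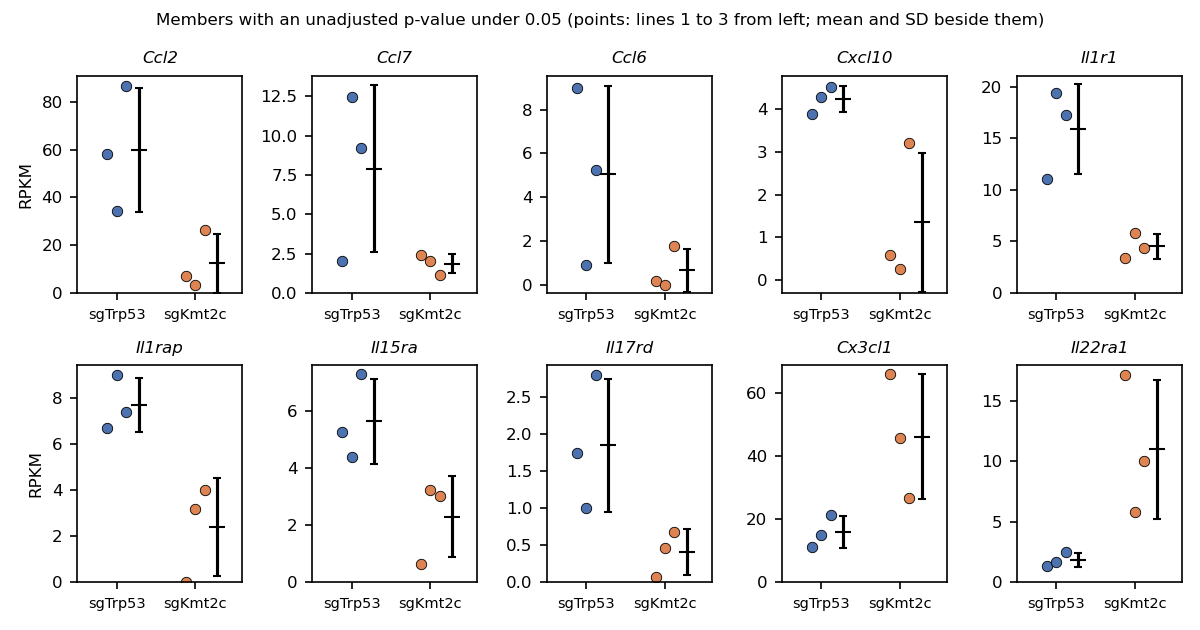
RPKM (vertical axes, linear) of the 10 members with an unadjusted p-value under 0.05 in the sgTrp53 lines (blue) and sgKmt2c lines (orange); points are lines 1 to 3 from left to right, and the bar beside them is the mean with its SD over 3 lines. All sgKmt2c points lie under all sgTrp53 points for *Ccl2*, *Cxcl10*, *Il1r1*, *Il1rap*, *Il15ra* and *Il17rd* and above them for *Cx3cl1* and *Il22ra1*, and those of *Ccl6* and *Ccl7* overlap.

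Of the 10, *Ccl2*, *Cx3cl1*, *Il1r1* and *Il22ra1* kept an unadjusted p-value under 0.05 in all 13 alternative fits. *Il1r1* averaged 15.9 ± 4.34 RPKM in sgTrp53 and 4.52 ± 1.23 RPKM in sgKmt2c lines (SD, n = 3 per genotype). The fitted log2 fold change was -1.60 ± 0.302 (SE, limma adjusted p = 0.227) and ranged from -1.83 to -1.45 over the alternatives. *Il22ra1* averaged 1.84 ± 0.588 and 11.0 ± 5.75 RPKM, with a log2 fold change of 1.99 ± 0.406 (SE, limma adjusted p = 0.277) and a range from 1.63 to 2.496. For *Cx3cl1* the means were 15.9 ± 5.14 and 46.3 ± 19.8 RPKM, with a log2 fold change of 1.43 ± 0.386 (SE, limma adjusted p = 0.407) and a range from 1.13 to 1.77. For *Ccl2* they were 59.96 ± 26.3 and 12.3 ± 12.4 RPKM, with a log2 fold change of -2.53 ± 0.695 (SE, limma adjusted p = 0.422) and a range from -3.27 without sgKmt2c line 3 to -1.94 without sgKmt2c line 2. Hence the members with the clearest separation still failed the correction over all genes.

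Among the other 6, *Il1rap* had a log2 fold change of -1.65 with a 95% confidence interval from -3.12 to -0.17, *Ccl6* of -1.74, *Ccl7* of -1.41, *Cxcl10* of -1.37, *Il15ra* of -1.10 and *Il17rd* of -0.99 (limma adjusted p from 0.528 to 0.579). Their unadjusted p-value rose above 0.05 in 4 to 10 of the 13 alternatives, most often for *Ccl7*. Without sgKmt2c line 1 the log2 fold change of *Il1rap* was -0.92 and that of *Il15ra* -0.66. limma voom, which fits the recovered reads without a pseudocount of 1 RPKM, gave -3.62 for *Il1rap*, -3.45 for *Ccl6*, -2.53 for *Il17rd* and -2.17 for *Cxcl10*. Neither the ELR chemokines nor *Ccl20*, *Il1rn*, *Il33* and *Cxcl12* could be placed: the 95% interval of *Cxcl5* ran from -4.63 to 2.93, that of *Il1rn* from -3.44 to 2.12 and that of *Cxcl12* from -6.96 to 4.93 on the log2 scale, so a large difference in either direction is within their error.

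**Figure D5:**
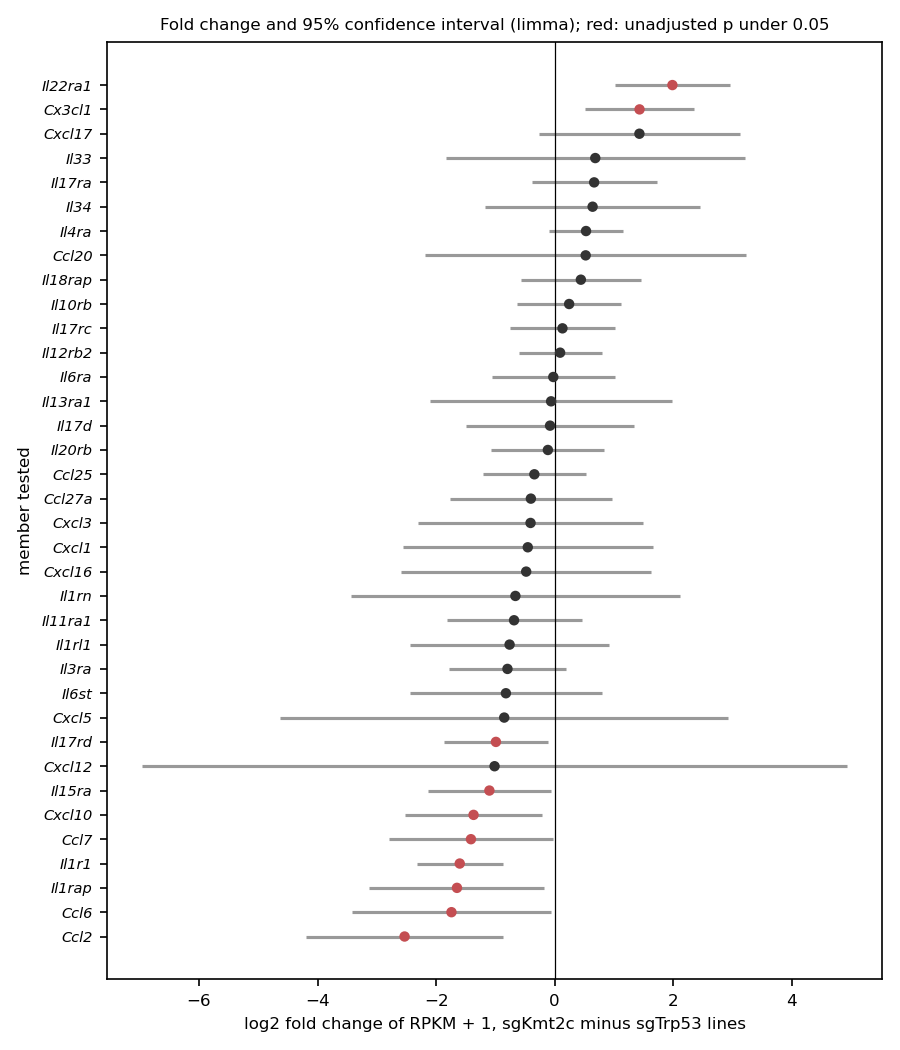
Log2 fold change of RPKM + 1 (horizontal axis, sgKmt2c minus sgTrp53 lines) with its 95% confidence interval from limma for the 36 tested members (vertical axis, ordered by fold change); red points have an unadjusted p-value under 0.05. The intervals of *Cxcl12* and *Cxcl5* are the widest, and the 10 red points run from -2.53 for *Ccl2* to 1.99 for *Il22ra1*.

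The spread between lines of a genotype was large for these genes. The median SD within a genotype was 0.838 on the log2 scale for the 36 tested members and 0.368 for all genes tested, and 15 of the 36 (41.7%) lay above the 90th percentile of all genes, 0.990. Members were also lower in expression, with a median mean log2 level of 2.24 against 3.85, and the part of that in their spread was not tested. Between the highest and the lowest line, 21 of the 50 transcribed members differed at least 10-fold. Besides *Cxcl12* and *Cxcl5* the widest range was that of *Il1rap* (at least 62.6-fold).

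Of the downstream signalling genes, 19 to 23 of 23 for the interleukin-1 receptor and NF-κB and 12 or 13 of 15 for JAK and STAT reached 1 RPKM in a line. Of the 23 genes of the first list all reached 1 RPKM in some line and 22 were tested, with 0 past an adjusted p-value under 0.05 in limma and 4 higher in the sgKmt2c lines at an unadjusted p-value under 0.05 (*Irak1*, *Irak2*, *Irak4* and *Ikbkg*, where 3.25% of all genes tested passed). The kinase gene *Irak2* lay at 4.95, 3.78 and 4.75 RPKM against 10.0, 11.3 and 7.73 RPKM (log2 fold change 0.95, limma adjusted p = 0.388). The median log2 fold change of these 22 genes was 0.02, beside -0.09 over all genes tested and the lower values of *Il1r1* and *Il1rap*. Of 15 JAK and STAT genes 13 were tested, with a median of 0.01. *Stat6*, the factor activated by interleukin-4 and interleukin-13, was higher (20.6, 27.6 and 18.8 RPKM against 29.9, 40.0 and 33.4 RPKM) and the kinase gene *Jak1* lower (39.8, 58.1 and 46.2 RPKM against 19.8, 36.8 and 32.0 RPKM) at an unadjusted p-value under 0.05 (backgrounds 3.25% and 5.34%), and 0 passed the adjusted threshold.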

How the data were processed

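RNA-seq libraries (TruSeq v2, a kit that does not mark strand) of 6 mouse lines were analysed. The authors trimmed reads with Trimmomatic, aligned them to GRCm38 with STAR, counted genes with HTSeq and deposited RPKM values. The deposited table has 21065 rows, 209 of them empty, and 6 further sample columns, which were not used. The authors' table of their own DESeq2 fold changes and p-values was not used. Multiplied by the listed transcript length, every value was a whole multiple (within 0.05) of a single step fitted per library. That step was taken as a single read, so reads per gene were recovered. Genes at 1 RPKM or more in at least 3 of 6 libraries were tested with limma 3.58.1 (R 4.3.3, trended eBayes) on log2(RPKM + 1), which understates changes of low genes. p-values were adjusted by Benjamini-Hochberg over all 11617 genes. On simulated data with 200 genes changed by a log2 fold of 2 the fit recovered 47.69%, and 73.82% at 3. The changed genes were drawn from all genes tested. Recovery among the members, whose spread between lines is larger, was not measured. Every member at 1 RPKM or more in any line is named, with all values where it reached 10 RPKM, passed 1 RPKM throughout a genotype, had an unadjusted p-value under 0.05 or did not overlap. Promoters came from RefSeq GRCm38.p6 and transcript lengths from GENCODE M1. The members, marker lists and pathway lists were chosen with earlier results of these data known. Floors of 3 reads cover counting error only, whereas the confidence intervals rest on the spread between lines. Alternatives covered pseudocount, filter, scaling, limma voom, replicate block and left-out lines.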

Additional observations from a re-analysis of the deposited data

How the results depend on the processing

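No alternative gave a member with an adjusted p-value under 0.05. The number with an unadjusted p-value under 0.05 (10) was 4 to 10 when a line was left out: 5 without sgTrp53 line 1, 6 without sgTrp53 line 2 and 4 without sgTrp53 line 3, with the cause not tested. Of all genes tested, 4.85% to 12.7% passed when a line was left out, and the share was lowest without an sgTrp53 line. The number of members was 8 to 11 under the other alternatives, beside 7.32% to 9.34% of all genes tested. Equal replicate numbers gave the highest correlation between genotypes for lines 1 and 2 (0.192 and 0.399) but not for line 3 (0.0316). Instead, sgTrp53 line 3 correlated best with sgKmt2c line 1 (0.152). The main fit held no replicate block. With the block, 9 members had an unadjusted p-value under 0.05 (9.34% of all genes tested) and 0 an adjusted one. The labels name sgKmt2c lines 2 and 3 as 2A and 2T1. With both as a single sample, 8 members remained at that unadjusted threshold, beside 9.06% of all genes tested. A pseudocount of 0.1 RPKM moved the log2 fold change of *Ccl6* to -3.35, of *Il1rap* to -2.81, of *Cxcl10* to -2.23 and of *Il17rd* to -2.08. Directions reversed for *Ccl20* with a pseudocount of 0.1 RPKM (log2 fold change -0.042), for *Cxcl16* with sgKmt2c lines 2 and 3 as a single sample (0.010), and for *Il13ra1* (0.0069) and *Il6ra* (0.011) with median-of-ratios scaling. Leaving out each line in turn also reversed some members that had no unadjusted p-value under 0.05. Their log2 fold changes ran from -0.48 to 1.67 for *Ccl20*, -1.03 to 0.63 for *Cxcl1*, -3.25 to 0.75 for *Cxcl12*, -1.46 to 0.37 for *Cxcl16*, -1.06 to 0.21 for *Cxcl3*, -2.48 to 0.78 for *Cxcl5*, -0.13 to 0.49 for *Il10rb* and -0.046 to 0.18 for *Il12rb2*. They ran from -0.63 to 1.00 for *Il13ra1*, -0.60 to 0.35 for *Il17d*, -0.12 to 0.51 for *Il17rc*, -1.57 to 0.58 for *Il1rn*, -0.44 to 0.13 for *Il20rb*, -0.61 to 1.37 for *Il33*, -0.16 to 1.30 for *Il34* and -0.36 to 0.34 for *Il6ra*. The cause was not tested. Over all tested members, 25 values reversed and 191 kept their direction when a line was left out, and 4 and 248 did so under the other alternatives.

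Thresholds of 0.5 or 2 RPKM, 1 TPM or 10 reads moved the number of members transcribed in a line by less than 1.5 times. With 3680068 to 6878625 reads per library, members of a few reads cannot be ordered.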
